A study of Homo sapiens with 6 samples.

Results

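The genes described here are the integrins, the collagens, the laminins and a set of further extracellular matrix proteins, taken by gene symbol from an annotation of Affymetrix HG U133 Plus 2.0 arrays. They were 105 genes of 19775 that the annotation names, and they were read by 286 probe sets. Expression was compared between 2 states of Caco2 cells, a human colorectal adenocarcinoma line whose differentiated cells resemble enterocytes. Parental cells, which are sensitive to the antifolate methotrexate (MTX), gave the RNA for 3 arrays, and cells that grow in 10 µM MTX gave it for the other 3. The resistant line had been obtained by growth in stepwise higher MTX, and whether it is 1 clone is not given in the sources used here. Parental cells were grown in Ham's F12 medium with fetal bovine serum. Resistant cells grew in a selective medium without glycine, hypoxanthine and thymidine and with dialyzed serum, so that the effects of resistance and of medium cannot be told apart.

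Epithelial cells rest on a basement membrane, a sheet of laminin and collagen IV networks held together by nidogens and the proteoglycan perlecan. Integrins, which are pairs of an alpha and a beta subunit, span the plasma membrane and tie this sheet or the fibronectin and collagen fibres beneath it to the actin cytoskeleton. Lysyl oxidases cross-link collagen and elastin outside the cell, and matricellular proteins such as thrombospondins and SMOC proteins alter how cells meet the matrix. In the gut most fibrillar collagen and small proteoglycan is made by stromal cells, and a cultured carcinoma line makes its own matrix.

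A signal is given below as a multiple of the median signal of its array. A gene was read by its brightest probe set, and 46 of the 105 genes had a mean signal of at least 1 array median and were tested. Changes are log2 values of the resistant over the parental group ± SE, with n = 3 arrays per group, and adjusted p is from limma with Benjamini-Hochberg adjustment over all 26563 tested probe sets. A gene rose or fell where the adjusted p was below 0.05. Parental array 3 correlated with the other parental arrays at r = 0.946 and 0.949 across probe sets, below the 0.966 between those arrays. Results of the members and of the genes read beside them that change without this array are given, but not those of cell type markers. The labels do not say whether the 3 samples of a group were grown separately. The p-values therefore rest on the spread between these samples alone, which may be technical. In RNA of whole cultures fewer cells of a type and less RNA per cell cannot be told apart.

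Of the 46 tested genes 9 rose and 9 fell. Among all 11849 tested genes, 7.37% rose and 5.05% fell, and 12.4% changed in either direction, against 39.1% of these members. For 8 of the 46 the mean of one group lay below the array median, so that they passed the filter through the other group, and 4 of these were called. Among the 38 members with both group means at or above the array median 7 rose and 7 fell, which is 36.8%, against 12.1% of all genes held to the same limits. The members were chosen with results of these data known, so these shares are a description. At a change of at least 2-fold 5 rose and 5 fell, where all tested genes gave 3.37% and 2.17%. Of these 10, LUM, THBS4, FN1 and SMOC2 passed the filter through one group, and among the 38 members 3 rose and 3 fell at 2-fold, against 2.94% and 1.86% of all genes held to the same limits. The median change was -0.05 over the members and 0.02 over all tested genes, whereas the median absolute change was 0.59 and 0.30. The median level also differed, at 3.91 array medians for the members and 10.3 for all tested genes, and its part in the size of the changes was not tested. The 3 resistant arrays lay apart from the 3 parental arrays for 26 of the 46 members, 14 above and 12 below, against 20.2% above and 15.2% below, 35.5% in all, of all tested genes. Among the 38 members these were 20, which is 52.6%, against 34.9%. Without single resistant arrays fewer members were called, 2, 2 and 3 risen and 4, 5 and 6 fallen without resistant arrays 1, 2 and 3. Without parental array 1, 5 rose and 5 fell, and without parental array 3, 13 rose and 9 fell.

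**Figure D1:**
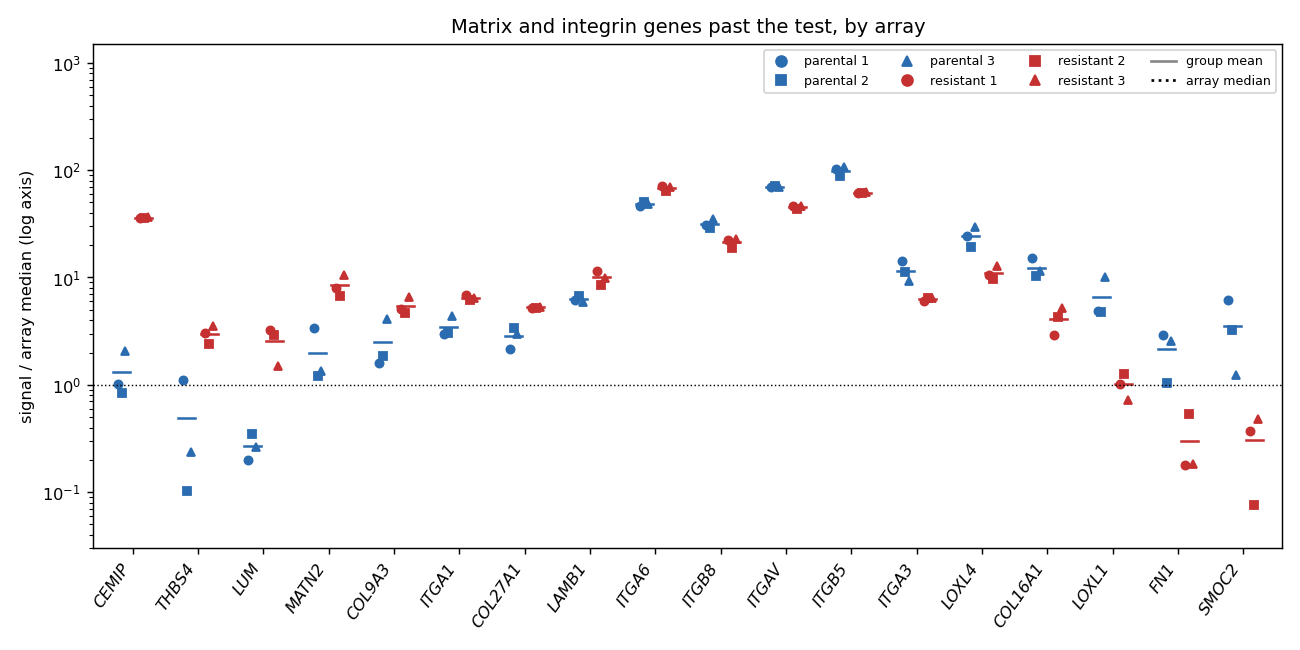
Signal of the 18 members past the test on each array, in multiples of the array median on a log axis (blue, parental; red, resistant; a marker shape for each replicate number; bars, means of the groups; dotted line, 1 array median). All 3 red markers lie on one side of the 3 blue markers for each of these genes. By the group means on the log axis CEMIP is the farthest apart above and SMOC2 and FN1 are the farthest below.

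The other 59 genes had mean signals between 0.0935 and 0.97 times the array median and were not tested. For 39 of them no array reached its median in the brightest probe set. The 59 untested genes included 8 of 11 fibrillar and 8 of 9 network-forming collagens, such as COL1A2 and COL3A1 of fibrous connective tissue and COL4A1, the partner of COL4A2 in collagen IV. The nidogens NID1 and NID2, SPARC and the fibrillins FBN1 and FBN2 were among them, as were the integrin subunits of blood cells ITGA4, ITGAL and ITGB2. The array gives no detection calls here, and low signals of this kind do not show that a gene is silent.

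For 5 members the call was kept under every limma alternative that gave a value, namely CEMIP, MATN2, LOXL1, LOXL4 and COL16A1. RefSeq promoter windows on GRCh38.p14, from 250 bases before to 50 after the start of transcription, were found for 78 of the 105 members. Those of the 4 genes among these 5 that have one are shown, since their calls held in these limma fits. The methods' t-test with Benjamini-Hochberg adjustment kept 2 of the 18 calls, CEMIP and ITGAV, and gave the other 16 adjusted p between 0.0507 and 0.236. The CEMIP window lies at chr15:80779120-80779419 (plus strand), LOXL1 at chr15:73926212-73926511 (plus strand), LOXL4 at chr10:98268145-98268444 (minus strand) and COL16A1 at chr1:31703968-31704267 (minus strand). Capitals mark matches, on either strand, to the TATA box letters TATAAA and the GC box letters GGGCGG, read 5′ to 3′ on the strand of the gene.
CEMIP: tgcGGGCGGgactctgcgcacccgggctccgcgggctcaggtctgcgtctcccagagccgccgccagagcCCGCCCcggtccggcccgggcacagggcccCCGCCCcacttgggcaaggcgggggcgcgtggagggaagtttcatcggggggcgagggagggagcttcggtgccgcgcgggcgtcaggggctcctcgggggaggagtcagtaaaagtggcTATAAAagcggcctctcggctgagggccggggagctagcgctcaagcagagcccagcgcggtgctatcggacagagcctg
LOXL1: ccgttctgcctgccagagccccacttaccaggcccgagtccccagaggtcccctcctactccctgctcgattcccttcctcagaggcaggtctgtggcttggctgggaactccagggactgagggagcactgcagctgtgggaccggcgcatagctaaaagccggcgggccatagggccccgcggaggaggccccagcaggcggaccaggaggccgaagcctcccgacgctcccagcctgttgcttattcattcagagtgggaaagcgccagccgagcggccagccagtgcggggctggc
LOXL4: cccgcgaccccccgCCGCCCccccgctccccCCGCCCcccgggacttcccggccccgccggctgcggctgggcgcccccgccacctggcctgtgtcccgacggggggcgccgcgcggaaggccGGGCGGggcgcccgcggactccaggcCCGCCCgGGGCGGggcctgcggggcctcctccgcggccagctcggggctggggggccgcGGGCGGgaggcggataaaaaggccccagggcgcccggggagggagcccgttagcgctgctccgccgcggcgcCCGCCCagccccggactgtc
COL16A1: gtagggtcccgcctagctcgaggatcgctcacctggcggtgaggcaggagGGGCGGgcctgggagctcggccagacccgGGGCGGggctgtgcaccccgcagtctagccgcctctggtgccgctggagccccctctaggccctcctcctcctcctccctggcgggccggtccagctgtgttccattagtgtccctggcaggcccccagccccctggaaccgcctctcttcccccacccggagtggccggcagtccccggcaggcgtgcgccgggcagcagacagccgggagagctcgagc
The CEMIP window held 1 TATA box and 3 GC boxes, the LOXL4 window 7 GC boxes and the COL16A1 window 2. The LOXL1 window held neither motif. TATAAA occurred in 11.5% and GGGCGG in 45% of 35116 RefSeq promoter windows of this length. The windows also held 0 matches to the AP-1 letters TGACTCA and TGAGTCA, found in 4.95% of all windows, and 0 to the CCAAT and GGAATG letters, found in 34.6% and 14%. Among the 14 called members with a window, 11 held GGGCGG and 2 held TATAAA, counted in the first listed window of each gene. The percentages are over all windows without this choice, and the counts were not tested against them. A match is a run of letters and was not tested as a site of binding.

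Integrin alpha subunits decide which matrix protein a cell can hold. Of 8 tested, 2 rose, 2 fell and 4 were not past the test, all by less than 2-fold. ITGAV, the alpha chain of the receptors for vitronectin and for latent TGF-beta, stood at 69.6, 70.6 and 69.4 times the array median on the parental arrays and 46.5, 43.6 and 46.5 on the resistant arrays. It fell 1.54-fold (-0.62 ± 0.11, adjusted p = 0.00834), with no overlap between the groups and parental arrays within a narrow band. ITGA3, which pairs with ITGB1 to bind laminins, fell 1.82-fold, from 14.3, 11.3 and 9.23 to 6.09, 6.38 and 6.40 times the array median (-0.86 ± 0.19, adjusted p = 0.0195). The resistant arrays were close to each other, and the parental arrays were spread more widely above them.

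ITGA1, the alpha chain of a collagen receptor, rose 1.91-fold, from 2.96, 3.04 and 4.35 to 6.81, 6.23 and 6.37 times the array median (0.93 ± 0.20, adjusted p = 0.0191). Its second tested probe set gave 0.20 ± 0.27 and did not pass. ITGA6, which forms laminin receptors with ITGB4 in hemidesmosomes or with ITGB1, had 46.8, 50.2 and 48.8 times the array median on the parental arrays and 71.3, 64.7 and 69.2 on the resistant arrays and a change of 0.49 ± 0.11, adjusted p = 0.0248. That probe set can read several transcripts, and the second ITGA6 probe set, at 43.8, 70.0 and 46.4 against 54.4, 44.5 and 60.0, gave 0.01 ± 0.19 with overlapping groups (adjusted p = 0.981). The rise of ITGA6 was therefore seen with 1 of its 2 probe sets.

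ITGA2, the alpha chain of another collagen receptor of epithelia, stood at 10.7, 18.2 and 14.4 times the array median on the parental arrays and 10.5, 9.23 and 7.48 on the resistant arrays. All resistant arrays were below all parental arrays, with a change of -0.65 ± 0.22, but the adjusted p was 0.0863. ITGAE, the alpha chain that binds E-cadherin, gave 0.01 ± 0.18 with overlapping groups. ITGA10, of a further collagen receptor, and ITGAM, of phagocytes, lay near the array median and gave 0.27 ± 0.69 and -0.32 ± 0.47. Leaving out single arrays ended the call of ITGAV without resistant array 1 or 2 (-0.63 to -0.59 over the arrays left out, highest adjusted p 0.0568). It ended those of ITGA3 and ITGA6 without parental array 1 or any resistant array (-1.02 to -0.70, highest adjusted p 0.0902, and 0.46 to 0.53, 0.133). Of the 6 fits with 1 array left out, the call of ITGA1 was kept only in that without parental array 3 (0.83 to 1.11, highest adjusted p 0.0917).

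**Figure D2:**
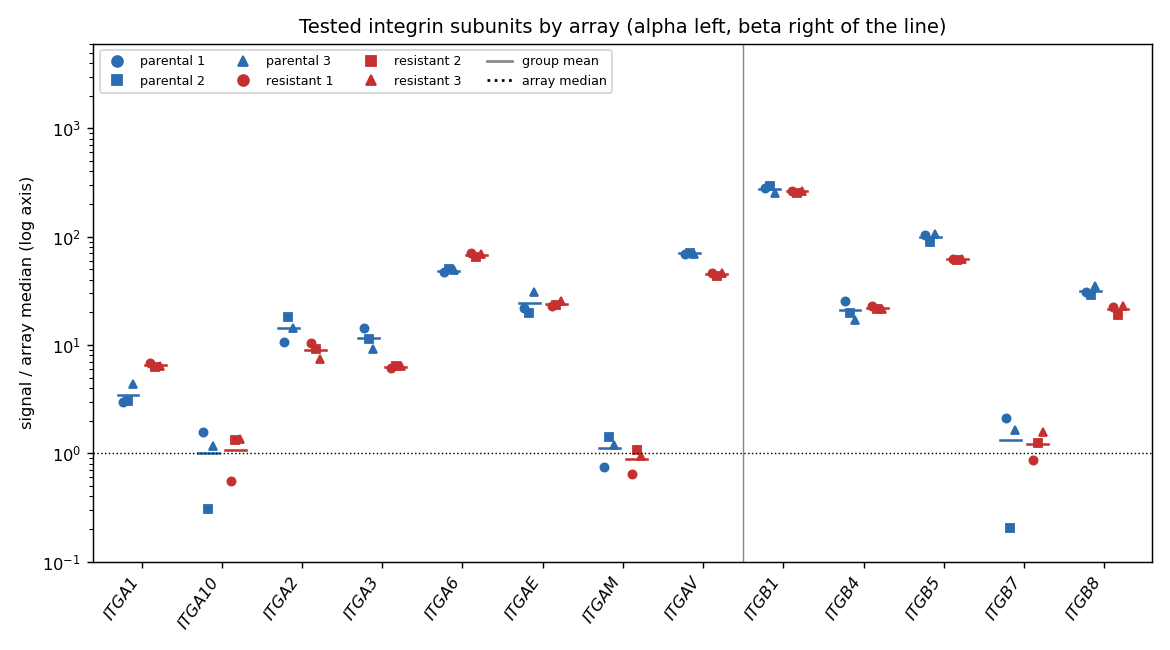
Signal of the 13 tested integrin subunits on each array, divided by the array median, on a log axis, with alpha subunits left and beta subunits right of the vertical line (markers as for the members past the test). ITGAV, ITGA3, ITGB5 and ITGB8 were lower on all 3 resistant arrays, ITGA1 and ITGA6 higher, and the markers of ITGB1 and ITGB4 overlap.

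Beta subunits carry a tail inside the cell, which in most of them binds talin and kindlin. Of 5 tested, 0 rose and 2 fell. ITGB5, a partner of ITGAV in a vitronectin receptor, had 103, 88.3 and 106 times the array median on the parental arrays and 61.9, 61.3 and 62.5 on the resistant arrays. It fell 1.60-fold (-0.68 ± 0.12, adjusted p = 0.00662), the resistant values lay within a narrow band below the parental ones, and 2 of its 4 tested probe sets fell. ITGB8, another partner of ITGAV, stood at 30.6, 28.8 and 35.1 times the array median on the parental arrays and 22.5, 18.8 and 23.1 on the resistant arrays and fell 1.47-fold (-0.56 ± 0.15, adjusted p = 0.0414). The second tested ITGB8 probe set gave -0.16 and did not pass. In their brightest probe sets both ITGAV partners with a call thus went the same way as ITGAV. That of ITGB3, a further partner, was below the array median on all 6 arrays. ITGB1, which can also pair with ITGAV, was not past the test (-0.08 ± 0.09, adjusted p = 0.631). Of 8 listed beta subunits 7 were read, and ITGB6 was not among them.

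ITGB1, the common partner of most laminin, collagen and fibronectin receptors, gave 282, 291 and 254 times the array median on the parental arrays and 265, 255 and 263 on the resistant arrays. The groups overlapped, and the change was -0.08 ± 0.09, adjusted p = 0.631. Of its 4 tested probe sets 0 passed, with changes from -1.22 to -0.01, and 1 had an unadjusted p below 0.05 in limma, a dim one open to other transcripts. ITGB4, which is found in hemidesmosomes, had 25.5, 19.9 and 17.1 against 22.8, 21.6 and 21.5 times the array median, parental against resistant, and gave 0.10 ± 0.17. ITGB7 was low, at 2.14, 0.203 and 1.64 against 0.874, 1.25 and 1.57, and its groups overlapped. The call of ITGB5 held with each array left out but ended without the intensity trend (adjusted p = 0.0505), and that of ITGB8 was kept, with 1 array left out, only without parental array 3 (-0.62 to -0.46, highest adjusted p 0.176).

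Laminins are trimers of an alpha, a beta and a gamma chain, and of 6 tested chains 1 rose and 0 fell. LAMB1, the beta chain of several basement membrane laminins, had 6.17, 6.67 and 5.96 times the array median on the parental arrays and 11.6, 8.56 and 9.94 on the resistant arrays. It rose 1.59-fold (0.67 ± 0.17, adjusted p = 0.0357), and its second probe set rose as well, from 4.12, 5.51 and 4.87 to 7.67, 8.45 and 7.30 (0.70 ± 0.18, adjusted p = 0.0343). The 3 resistant arrays were above the 3 parental arrays in both. LAMC1, the gamma chain of the same laminins, gave 0.06 ± 0.18 with overlapping groups in its brightest probe set, whereas its second probe set fell (-0.59 ± 0.16, adjusted p = 0.0493), so that no direction can be given for LAMC1.

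LAMB3, a chain of the epithelial laminin-332, stood at 62.8, 56.3 and 26.1 times the array median on the parental arrays and 31.7, 34.4 and 34.4 on the resistant arrays. Parental array 3 lay below the resistant arrays and the other 2 parental arrays above all of them, and the change was -0.43 ± 0.28, adjusted p = 0.349. Without parental array 3 it was -0.83 (adjusted p = 0.000347). LAMA5, the alpha chain of the main laminins of adult epithelium, had 12.0, 14.6 and 16.7 against 7.90, 16.5 and 13.4 and gave -0.25 ± 0.26. LAMB2, of the same main laminins, gave -0.27 ± 0.20 with all resistant arrays below the parental ones. LAMA2 stood near the array median with 0.84 ± 0.41 in its brightest probe set, and a second, dimmer LAMA2 probe set gave 2.21 ± 0.57, adjusted p = 0.0391. With 1 array left out the call of LAMB1 was kept only without parental array 3 (0.56 to 0.78, highest adjusted p 0.163).

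Collagen IV and perlecan complete the basement membrane. COL4A2 had 5.52, 4.80 and 10.3 times the array median on the parental arrays and 11.2, 11.8 and 10.6 on the resistant arrays, with parental array 3 just below the resistant arrays and the other 2 parental arrays well below them. Its change was 0.79 ± 0.26, adjusted p = 0.0833, and 1.12 without parental array 3 (adjusted p = 0.000434). A second COL4A2 probe set gave 0.65 ± 0.20, adjusted p = 0.0686. HSPG2, which encodes perlecan, had 10.3, 11.6 and 12.5 against 15.6, 18.3 and 12.7 and gave 0.42 ± 0.18, adjusted p = 0.153. The second HSPG2 probe set gave 0.0056. In their brightest probe sets both genes were higher on every resistant array than on every parental array, and neither passed the test with all 6 arrays.

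Among the other collagens 2 rose and 1 fell of 10 tested. COL16A1, a collagen found beside fibrils that carries a chain with interrupted helices, stood at 15.1, 10.3 and 11.4 times the array median on the parental arrays and 2.89, 4.28 and 5.16 on the resistant arrays. It fell 3.03-fold (-1.60 ± 0.24, adjusted p = 0.00352), and the groups were well apart. COL27A1, a fibrillar collagen known from cartilage, had 2.14, 3.37 and 2.98 times the array median on the parental arrays and 5.21, 5.24 and 5.32 on the resistant arrays. It rose 1.89-fold (0.92 ± 0.21, adjusted p = 0.0253), the resistant arrays lay within a narrow band, and 2 of its 3 tested probe sets rose, with changes of 0.92 to 1.94.

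COL9A3, a chain of the fibril-associated collagen IX, had 1.60, 1.85 and 4.12 times the array median on the parental arrays and 5.08, 4.63 and 6.64 on the resistant arrays. It rose 2.34-fold (1.22 ± 0.34, adjusted p = 0.0476), and parental array 3 stood above the other parental arrays. Of the other 2 chains of that collagen, COL9A2 gave -0.79 ± 0.59 with overlapping groups and COL9A1 was not tested. COL18A1, the collagen from which endostatin is cut, gave -0.08 ± 0.27, and COL1A1, with probes shared by other transcripts, gave -0.15 ± 0.18. Groups overlapped for both. COL11A2, COL13A1, COL6A2 and COL22A1 gave -0.08 ± 0.26, -0.02 ± 0.41, -0.35 ± 0.36 and -0.12 ± 0.39. The call of COL27A1 ended without parental array 1 or any resistant array (0.73 to 1.06, highest adjusted p 0.0986), and that of COL9A3 was kept, with 1 array left out, only without parental array 3 (0.96 to 1.65, highest adjusted p 0.167).

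Of 3 tested lysyl oxidases 2 fell and 0 rose. LOXL1, which is needed for elastic fibre assembly, had 4.91, 4.80 and 10.2 times the array median on the parental arrays and 1.03, 1.27 and 0.722 on the resistant arrays. It fell 6.34-fold (-2.66 ± 0.34, adjusted p = 0.00157), to about the array median, and parental array 3 was the highest of the parental arrays. LOXL4, a member of the branch of the family with scavenger receptor domains, had 24.4, 19.0 and 29.2 times the array median on the parental arrays and 10.5, 9.69 and 12.7 on the resistant arrays. It fell 2.19-fold (-1.13 ± 0.19, adjusted p = 0.00599), with no overlap. LOXL3, of the same branch, went the other way without passing, at 1.16, 0.516 and 1.91 against 2.68, 2.40 and 2.44, a change of 1.26 ± 0.44, adjusted p = 0.101. It was 1.69 without parental array 3 (adjusted p = 0.0103). LOX and LOXL2 were not bright enough to be tested. LOXL1 ranged from -2.85 to -2.31 and LOXL4 from -1.29 to -0.98 with single arrays left out, with highest adjusted p of 0.0102 and 0.0417.

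Matrix glycoproteins moved in both directions, with 1 risen and 2 fallen of 4 tested. FN1, fibronectin, the ligand of several integrins and the core of fibres around cells, had 2.91, 1.05 and 2.56 times the array median on the parental arrays and 0.18, 0.538 and 0.183 on the resistant arrays. It fell (-2.93 ± 0.70, adjusted p = 0.0282), and all resistant arrays were below the array median. This probe set shares probes with other transcripts. The second FN1 probe set fell as well (-3.59 ± 0.93, adjusted p = 0.0385), while the third gave -3.62 ± 1.41, adjusted p = 0.131. SMOC2, a calcium-binding matricellular protein known as a marker of intestinal stem cells, had 6.20, 3.27 and 1.24 times the array median on the parental arrays and 0.369, 0.0755 and 0.478 on the resistant arrays. It fell (-3.63 ± 0.83, adjusted p = 0.0239), with wide spread in both groups but no overlap.

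MATN2, a matrilin that joins matrix filaments, had 3.40, 1.22 and 1.34 times the array median on the parental arrays and 8.04, 6.78 and 10.6 on the resistant arrays. It rose 4.70-fold (2.23 ± 0.37, adjusted p = 0.00545) and the lowest resistant array stood above parental array 1, the highest parental one. TNC, tenascin-C, gave 0.40 ± 0.31 with overlapping groups. SMOC1, near the median on parental arrays, was not tested. Because FN1 and SMOC2 fell to signals below the array median, the size of their changes depends on how low signals are treated. FN1 was 7.61-fold lower, 5.48-fold when values under the 25th percentile of an array were set to it (low signals raised) and 3.22-fold with an offset of 0.5 array medians. For SMOC2 the same settings gave 12.3-fold, 7.86-fold and 4.48-fold. The call of FN1 ended without parental array 1 or 3 or resistant array 1 or 3 (-3.45 to -2.65, highest adjusted p 0.155), and that of SMOC2 without parental array 1 or 2 or resistant array 1 or 2 (-4.25 to -2.80, 0.139).

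Of 3 tested thrombospondins, which bind calcium, matrix proteins and cell surfaces, 1 rose. THBS4, of the pentameric subgroup, had 1.12, 0.102 and 0.239 times the array median on the parental arrays and 3.03, 2.41 and 3.54 on the resistant arrays. It rose (3.30 ± 0.77, adjusted p = 0.0268), from below the array median on 2 parental arrays to above it on all resistant arrays. THBS1, a trimeric form that can activate latent TGF-beta, had 4.64, 4.15 and 5.07 times the array median on the parental arrays and 3.27, 3.66 and 3.47 on the resistant arrays. The resistant arrays were all lower, with a change of -0.41 ± 0.18, but the adjusted p was 0.178, and its 3 tested probe sets gave -0.69 to 0.18. THBS3 gave -0.17 ± 0.31, and THBS2 was not tested. THBS4 was 9.83-fold higher, or 6.49-fold after raising low signals and 3.86-fold with the offset. Its call ended on leaving out any single resistant array (2.52 to 4.25, highest adjusted p 0.117).

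Proteoglycans and proteins that bind or cut the long sugar chain hyaluronan included the largest change of the 46 tested members. Of 5 tested, 2 rose and 0 fell. CEMIP, a protein of hyaluronan breakdown, had 1.01, 0.844 and 2.06 times the array median on the parental arrays and 35.9, 35.9 and 36.5 on the resistant arrays. It rose 29.9-fold (4.90 ± 0.29, adjusted p = 1.3e-05), and the resistant arrays differed from each other by less than the parental arrays did. A second CEMIP probe set rose too, from 0.243, 0.0703 and 0.133 to 3.65, 3.08 and 3.28 (4.66 ± 0.67, adjusted p = 0.00277). With the offset the CEMIP change was 21.1-fold, and with single arrays left out it ranged from 4.65 to 5.29.

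LUM, lumican, a small leucine-rich proteoglycan of collagen fibrils, stood at 0.198, 0.352 and 0.265 times the array median on the parental arrays and 3.27, 2.92 and 1.50 on the resistant arrays. It rose (3.20 ± 0.55, adjusted p = 0.00717), and the groups were far apart although all signals were low. BGN, biglycan, of the same family, had 1.15, 0.0547 and 0.239 times the array median on the parental arrays and 2.57, 3.45 and 1.91 on the resistant arrays in a probe set open to other transcripts (shared probes). The change was 3.38 ± 0.95, adjusted p = 0.0518, while a second BGN probe set rose (1.78 ± 0.41, adjusted p = 0.0256). DCN, decorin, another relative, was not tested. LUM was 9.20-fold higher, or 7.71-fold after raising low signals and 3.85-fold with the offset, and its call ended without resistant array 1 or 2 (2.99 to 3.55, highest adjusted p 0.0845). BGN passed under 7 alternatives, among them low signals raised, the offset and the omission of parental array 1 or 3 (change 1.81 to 4.49, adjusted p 0.0156 to 0.0493).

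HAPLN1, which links hyaluronan to aggregating proteoglycans, had 0.532, 0.383 and 0.513 times the array median on the parental arrays and 5.20, 1.18 and 1.34 on the resistant arrays. Resistant array 1 was far above resistant arrays 2 and 3, which in turn were above all parental arrays. The change was 2.10 ± 0.60, adjusted p = 0.0547, and 2.16 without parental array 3 (adjusted p = 0.0297) or 2.10 with low signals raised (0.048). The other 2 tested HAPLN1 probe sets were also highest on resistant array 1 and gave 1.16 and 3.05, with adjusted p of 0.56 and 0.303. VCAN, versican, a proteoglycan that HAPLN1 can hold to hyaluronan, had 1.45, 0.562 and 1.06 against 1.34, 1.11 and 0.904 and gave 0.21 ± 0.48 with overlapping groups.

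**Figure D3:**
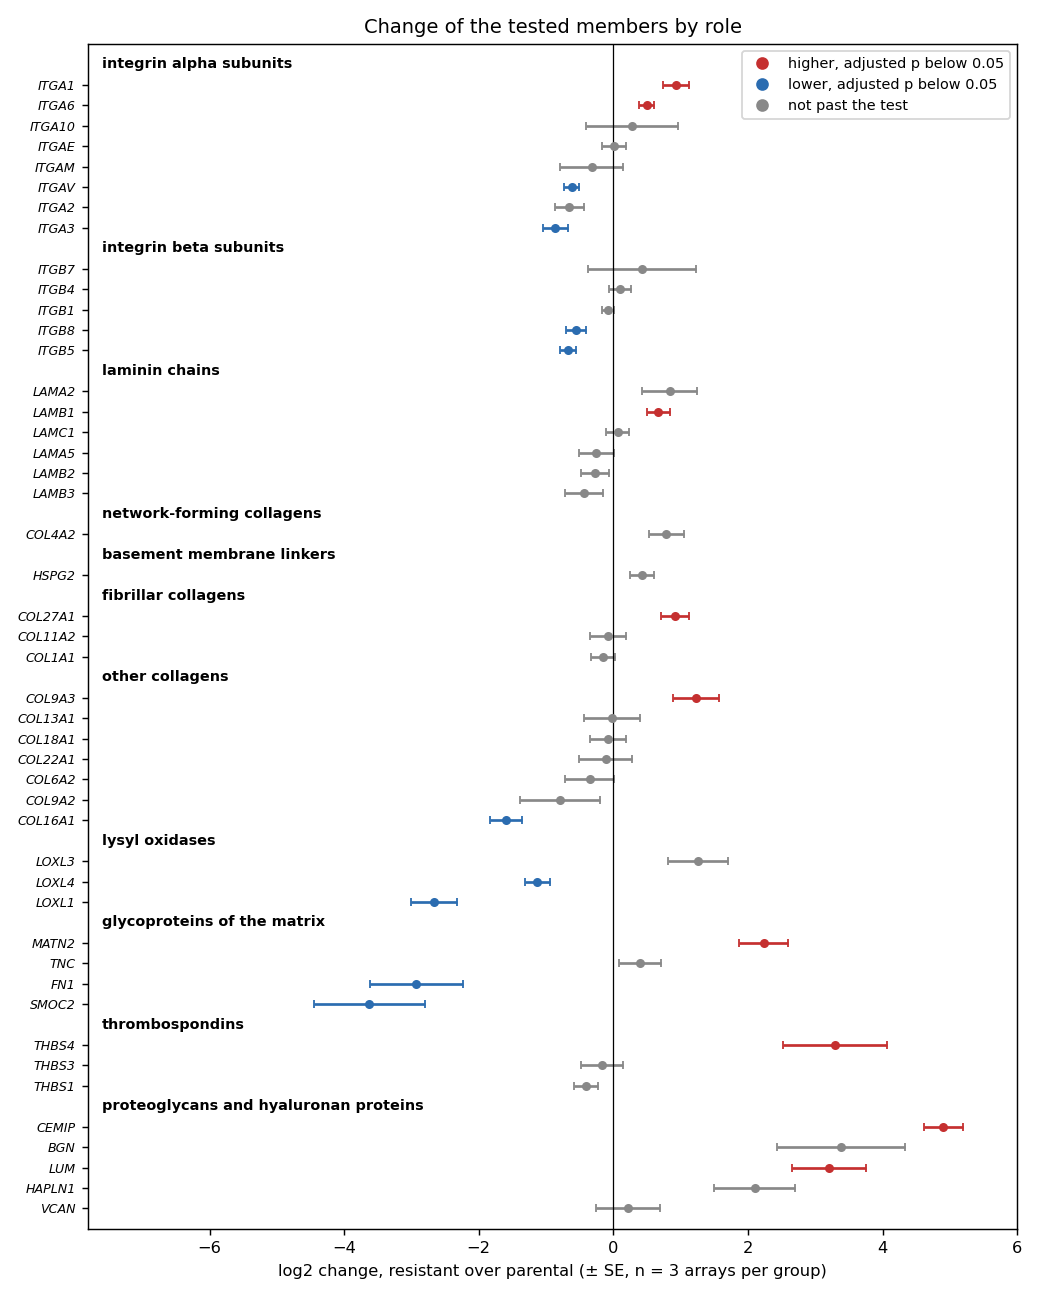
Log2 change (resistant over parental) with its SE for the 46 tested members, ordered by role (red, higher and blue, lower at an adjusted p below 0.05; grey, not past the test). Integrin and laminin subunits lie within about 1 log2 unit of 0, while the matrix glycoproteins hold changes beyond 2 in both directions. Changes beyond 2 are only downward in the lysyl oxidases and only upward in the thrombospondins and proteoglycans.

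Genes that act beside the members were read from 6 lists, with 80 tested genes in all. Among all 11849 tested genes 7.37% rose and 5.05% fell, and the small counts of each list below stand against these shares. Of the 80 genes 12 rose and 7 fell, and the median of their changes was 0.03. With no further scaling of the arrays 6 rose and 6 fell. Without parental array 3, 20 rose and 16 fell, against 5 and 2 without resistant array 1. Among 23 tested focal adhesion adaptors and kinases, which couple integrins to actin, 1 rose and 3 fell. TLN1, talin, the adaptor on the beta tail, had 2.32, 2.54 and 2.74 against 1.32, 1.15 and 0.713 times the array median, parental against resistant, and fell 2.47-fold (-1.30 ± 0.32, adjusted p = 0.0336). PXN, paxillin, fell 1.63-fold (-0.70 ± 0.19, adjusted p = 0.0469), and the kinase PTK2B, at 2.79, 1.86 and 1.92 against 0.414, 0.17 and 0.443, fell (-2.77 ± 0.56, adjusted p = 0.0152). PTK2B passed the filter through the parental group alone, and without such genes 2 of 22 adaptors fell. FERMT1, the kindlin of epithelia, rose 1.55-fold, from 28.4, 35.0 and 40.3 to 49.9, 53.1 and 56.8 (0.64 ± 0.15, adjusted p = 0.0277). These groups did not overlap, but each of the 4 calls was lost on leaving out at least 2 of the arrays in turn, PTK2B without parental array 1 or 2, PXN without those or resistant array 1 or 2, and TLN1 and FERMT1 without any array but parental array 3 (highest adjusted p 0.0968, 0.186, 0.1 and 0.119, and changes of -3.02 to -2.33, -0.89 to -0.58, -1.48 to -1.04 and 0.50 to 0.75).

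Of 16 tested genes of collagen folding and processing 4 rose and 0 fell. Their median was 0.26, with 13 changes above and 3 below 0. Among the lower ones, PLOD3 had all resistant arrays below all parental arrays without passing (-0.41 ± 0.12, adjusted p = 0.0516). PLOD2, which hydroxylates lysines of collagen telopeptides, had 11.9, 9.70 and 13.2 against 25.6, 25.5 and 45.4 and rose 2.69-fold (1.43 ± 0.23, adjusted p = 0.00553). PCOLCE2, an enhancer of procollagen cleavage, rose 2.94-fold, from 2.16, 1.81 and 2.46 to 5.43, 5.55 and 8.17 (1.56 ± 0.23, adjusted p = 0.00317). Both calls held with each array left out. PLOD1 and CRTAP, of lysine and proline hydroxylation, rose 1.72-fold and 1.57-fold, calls that were kept, with 1 array left out, only without parental array 3 (0.60 to 1.00 and 0.52 to 0.80, highest adjusted p 0.155 and 0.145).

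Non-integrin matrix receptors gave 4 risen and 2 fallen genes of 12 tested. GPC4, a glypican that carries heparan sulfate chains, had 1.77, 1.13 and 1.37 against 7.34, 6.39 and 6.36 and rose 4.77-fold (2.25 ± 0.23, adjusted p = 0.000373). CD44, the main receptor of hyaluronan, rose 1.82-fold, from 49.6, 43.6 and 60.9 to 89.8, 91.5 and 96.7 (0.86 ± 0.14, adjusted p = 0.00508). Neither pair of groups overlapped, and both calls held with each array left out. SDC1, a syndecan, rose 2.06-fold (1.04 ± 0.26, adjusted p = 0.0323), and HMMR, a hyaluronan-binding protein that also acts at the mitotic spindle, fell 1.92-fold (-0.94 ± 0.19, adjusted p = 0.0141). The other called genes were CD47, a thrombospondin receptor, at 0.66 ± 0.16, and BCAM, a laminin receptor, at -0.72 ± 0.20. With 1 array left out CD47 was kept only without parental array 1 or 3 (0.50 to 0.79, highest adjusted p 0.136) and BCAM only without parental array 3 (-0.86 to -0.59, 0.17). The call of SDC1 ended without parental array 1 or any resistant array (0.71 to 1.30, highest adjusted p 0.122) and that of HMMR without resistant array 1 or 2 (-1.15 to -0.81, highest adjusted p 0.0779).

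Among 19 tested further matrix glycoproteins 2 rose and 2 fell. TGFBI, a TGF-beta-induced ligand of integrins, had 87.8, 69.2 and 93.1 times the array median on the parental arrays and 25.4, 25.1 and 25.7 on the resistant arrays. It fell 3.25-fold (-1.70 ± 0.14, adjusted p = 0.000108), and the resistant arrays were within a narrow band. CCN3, of the CCN family of matricellular proteins, rose 3.94-fold, from 1.46, 1.45 and 1.10 to 4.44, 3.95 and 8.03 (1.98 ± 0.30, adjusted p = 0.00361). FRAS1 and FREM2, which build one complex below embryonic epithelia, moved apart, FRAS1 falling 1.95-fold and FREM2 rising 2.02-fold. With 1 array left out these 2 calls were kept only without parental array 3 (-1.21 to -0.77 and 0.82 to 1.21, highest adjusted p 0.0893 and 0.184), whereas those of TGFBI and CCN3 held with each array left out. In hyaluronan synthesis and turnover 1 of 7 rose, the synthase HAS2 (1.00 ± 0.27, adjusted p = 0.0437), likewise kept, with 1 array left out, only without parental array 3 (0.83 to 1.16, highest adjusted p 0.184), and of 3 tested further proteoglycan core proteins 0 passed, also at an unadjusted p below 0.05 in limma.

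**Figure D4:**
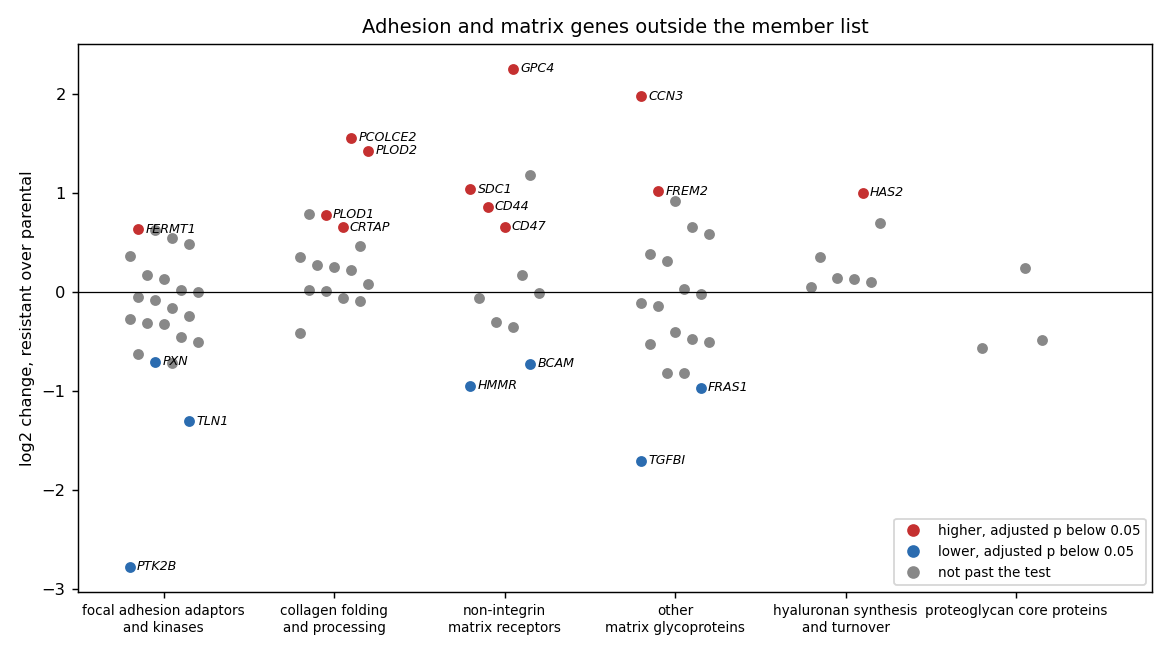
Log2 change (resistant over parental) of the 80 tested genes of 6 lists of adhesion and matrix genes outside the member list, 1 point per gene, named where the adjusted p was below 0.05 (red, higher; blue, lower; grey, not past the test). Collagen folding and processing shows 4 red and 0 blue points, and the adaptor list 1 red and 3 blue.

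Markers of cell types were read beside these results. Of 10 colon epithelium markers 8 were tested, 5 rose and 0 fell, against 7.37% risen and 5.05% fallen of all tested genes. The summed signal of the 10 markers was 1565 to 1922 array medians on parental and 2391 to 2490 on resistant arrays. The keratins KRT18, KRT8 and KRT20, among the brightest of them, rose by 0.41 ± 0.11, 0.68 ± 0.16 and 1.57 ± 0.24. EPCAM gave 0.12 ± 0.10 and CDH1 -0.21 ± 0.13, with overlapping groups for both. LGALS4 rose (0.98 ± 0.25, adjusted p = 0.0351), as did the brush border gene VIL1 (0.80 ± 0.13, adjusted p = 0.00504), while CDX2 and CDX1 were below the array median on all but 1 resistant array each. Fibroblast and smooth muscle markers summed to 8.70 to 12.6 on parental and 6.07 to 7.06 on resistant arrays, and 2 of 9 were tested. ACTA2 fell (-2.00 ± 0.27, adjusted p = 0.00211), from 6.41, 5.38 and 4.21 to 1.24, 1.77 and 1.03. The other tested marker of this list, THY1, gave 0.18 ± 0.38 with overlapping groups, and PDGFRA, PDGFRB and TWIST1, each in its brightest probe set, were below the array median on all 6 arrays. Of 6 endothelial markers 1 was tested, and their sums were 2.32 to 4.20 on parental and 3.43 to 3.89 on resistant arrays. Of 4 blood cell markers 2 were tested, with sums of 11.0 to 22.4 and 9.24 to 12.1. The blood cell marker LAPTM5 fell (-0.91 ± 0.25, adjusted p = 0.0468). CD14, the other tested marker of this list, gave -0.13 ± 0.33 with overlapping groups. It had 14.8, 5.49 and 6.38 times the array median on the parental arrays and 6.72, 6.66 and 8.89 on the resistant arrays. PTPRC, of the same list, was below the array median on all arrays in its brightest probe set. The marker calls were not refitted with single arrays left out. The part of these markers in the matrix results was not tested.

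**Figure D5:**
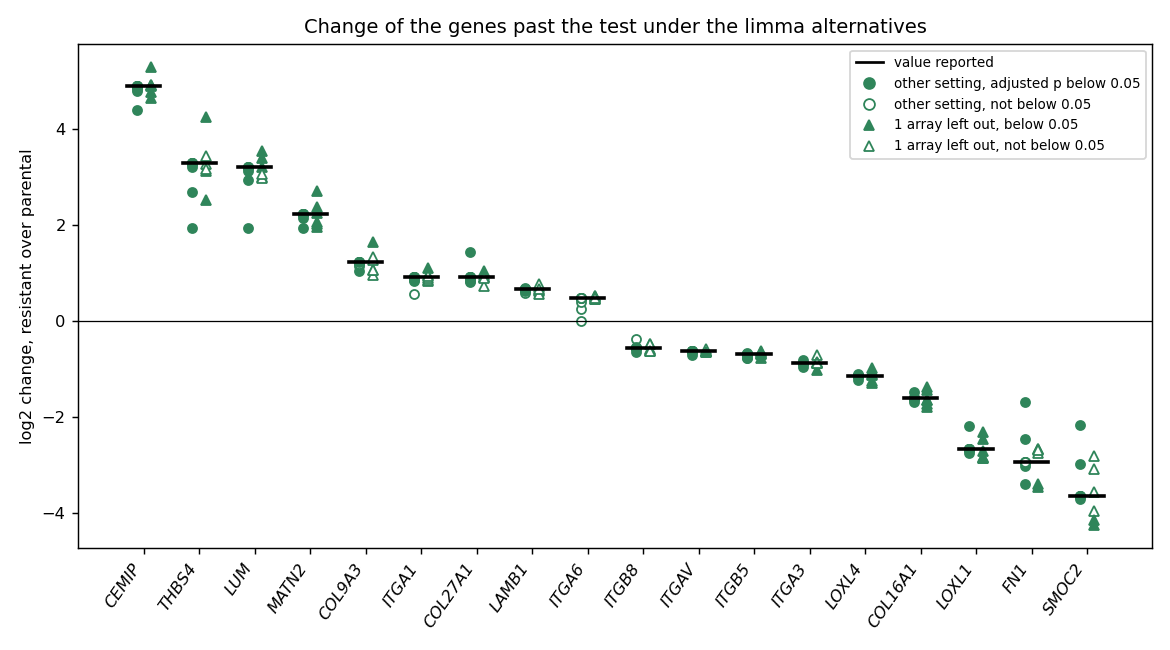
Log2 change (resistant over parental) of the 18 members past the test as reported (black bar) and under the limma alternatives (circles, other settings; triangles, 1 array left out; filled where the adjusted p was below 0.05). All points of a gene lie on one side of 0, and CEMIP, MATN2, LOXL4, COL16A1 and LOXL1 have filled symbols throughout, while ITGA6 reaches 0.01 with its second probe set.

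Other settings ended further calls without turning a direction. Without the dependence of the variance prior on signal, 4 members rose and 5 fell, and COL27A1, COL9A3, ITGA3, ITGA6, ITGB5, ITGB8, LAMB1, SMOC2 and THBS4 had adjusted p between 0.0505 and 0.112. With no filter COL27A1, COL9A3, ITGB8 and LAMB1 were lost (adjusted p 0.0505 to 0.0763), and with no further scaling COL27A1, COL9A3, ITGA6 and LAMB1 (0.0524 to 0.118). The mean of all tested probe sets of a gene ended the calls of ITGA1, ITGA6 and ITGB8 (0.106 to 0.359), and quantile normalization that of COL9A3 (0.0572).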

How the data were processed

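RNA of 3 parental and 3 MTX-resistant Caco2 samples was hybridised to Affymetrix HG U133 Plus 2.0 arrays, which hold 54675 probe sets. The deposited values are signal intensity on a linear scale. Per the labels they were made with MAS5 by the authors, and the version is not given in the sources used here. Intensities were scaled to the array median (10.6 to 12.8 intensity units), exact zeros (10 values, 0 in members) were set to 0.05 intensity units, and log2 was taken. The number of arrays limits the precision.

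The 62 control probe sets were removed. Of the remaining 54613 the platform annotation named 1 gene for 41091, several for 1801 and none for 11721, and 41037 symbols were updated through RefSeq GRCh38.p14. Probe sets whose mean reached 1 array median were fitted with limma 3.58.1 (lmFit, eBayes with an intensity trend) in R 4.3.3 on both groups without covariates, and p-values were adjusted by the Benjamini-Hochberg method. Members are genes whose symbols fall in the integrin, collagen and laminin families or a list of matrix proteins. The members, role groups, 6 related lists and 4 marker lists were chosen with earlier results of these data known. Genes named are the called members, the 4 tested members of each role group with the highest mean signal, all thrombospondins, lysyl oxidases and singly listed members, and up to 4 called genes of each related list with the largest changes. The remaining tested members, CD47, BCAM, PLOD3, markers and further untested genes or dimmer probe sets were named after their values were seen. The script was tested on simulated data. Alternatives covered the filter, low signals, the scaling, the variance prior, the choice of probe set, the replicate number and each array. Promoter sequences came from RefSeq.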

Additional observations from a re-analysis of the deposited data

How the results depend on the processing

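Counts are given as members risen and fallen, 9 and 9 as reported, then those at 2-fold, 5 and 5, then related genes risen and fallen, 12 and 7. With single arrays left out these ranged from 2 to 13, 4 to 9, 2 to 10, 3 to 4, 5 to 20 and 2 to 16. Without the intensity trend 4 and 5 members and 3 at 2-fold risen were called, and 5 and 3 related genes. With a filter at 3 array medians 3 rose and 3 fell at 2-fold. Without probe sets of shared or several transcripts 5 members rose, 2 rose at 2-fold and 3 fell at 2-fold, of 27 tested. With no filter 4 related genes fell, and with no further scaling 6 rose and 6 fell. The methods' t-test gave 1 risen and 1 fallen member after Benjamini-Hochberg adjustment (9 and 11 at an unadjusted p below 0.05), 1 and 0 at 2-fold, and 1 and 1 related genes.

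Replicate numbers did not pair the samples, since deviations from group means of same-numbered arrays correlated at -0.018, -0.022 and -0.016. With the replicate number as a block, 8 members rose and 7 fell, and 9 and 4 related genes. FN1, ITGA6, ITGB8 and LAMB1 were then not past the test (adjusted p 0.055 to 0.0699).

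Over 611 comparisons of 37 called genes 408 calls were kept, 203 lost and 0 turned in direction. Of the 28 uncalled members the direction of 12 turned in at least 1 fit. ITGAE was -0.0698 with no further scaling, ITGB4 -0.18 with the mean of all probe sets, and LAMC1 -0.0202 and -0.265 in these settings. With single arrays left out COL11A2 ranged from -0.27 to 0.0378, COL13A1 from -0.43 to 0.32, COL18A1 from -0.27 to 0.23, COL22A1 from -0.322 to 0.0736, ITGA10 from -0.445 to 0.737, ITGAE from -0.12 to 0.20, ITGB4 from -0.0351 to 0.25, ITGB7 from -0.644 to 1.05, LAMA5 from -0.48 to 0.0528, LAMC1 from -0.10 to 0.15, THBS3 from -0.45 to 0.0016 and VCAN from -0.17 to 0.52. ITGB7 and ITGAE also turned with the ratio of linear means (-0.11 and -0.0125). Signals near or below the array median carry wide errors. The cause of these differences was not tested.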
